A study of Mus musculus with 6 samples.

Results

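The transcripts described here are those of the translation initiation factors, the eIF genes, in mouse macrophages. Members were taken by symbol, as every gene whose name begins with Eif and a factor number from 1 to 6, without pseudogenes named -ps and without the eIF2 kinase genes (Eif2ak), which act on a factor but are not one. The rule found 52 of 55335 genes in the deposited table, and 7 pseudogenes and 4 kinase genes were left out. The member Eif2c5 carries an older name of the Argonaute family and is annotated as a long noncoding RNA, so it is an initiation factor by symbol only. It was listed at 0 in all 6 libraries. The rule also takes in the eIF4E-binding protein genes (Eif4ebp), which act on a factor by withholding it. Eif1ad, with an eIF1A-like domain, and the eIF5A genes, now counted chiefly with elongation and termination, are members by symbol as well. The cells were macrophages grown for 6 days from bone marrow of wildtype male C57BL/6 mice aged 6 to 8 weeks. Every culture received medium from acinar cells, the enzyme-secreting cells of the pancreas, for 4 h at 1:1, and those acinar cells had been exposed to 200 nM caerulein, a secretagogue peptide, for 5 h. The CM group (n = 3 independent cultures) received that medium alone, and the CM + 4OI group (n = 3) received it together with 200 µM 4-octyl itaconate (4OI), a cell-permeable derivative of the macrophage metabolite itaconate. Cultures without the medium, or with 4OI but no medium, were not analysed here. The title of the series names STING inhibition and NRF2 activation in macrophages, and the comparison asks how transcripts differ when 4OI is present.

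Initiation factors bring the small ribosomal subunit, the initiator methionyl-tRNA and the mRNA together and then release to let the large subunit join. eIF4E binds the mRNA cap, eIF4G bridges it to the ribosome through eIF3, eIF4A unwinds the leader, eIF1 and eIF1A hold the ribosome in a scanning state, and eIF2 delivers the initiator tRNA as a complex with GTP that eIF5 helps to hydrolyse. In activated macrophages this step is a known point of control, because 4E-BP proteins withhold eIF4E and eIF2 kinases block the recharging of eIF2 by eIF2B.

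Expression was given by the authors as FPKM, a fragment count scaled by transcript length and library depth, so that levels of different genes can be set side by side per length. Estimated depth was 18 to 25.3 M fragments per library (M, mega), and 10252 to 10658 genes reached 1 FPKM in a library. Macrophage markers summed to 10640 to 11310 FPKM in CM and 10810 to 11430 FPKM in CM + 4OI, and all 9 marker rows reached 1 FPKM (Itgam is listed under 2 gene IDs). Lyz2 made up most of these sums (8185 to 9018 FPKM over the 6 libraries). Of the macrophage markers 2 were called lower by limma, Mertk (21.7 to 24.7 FPKM in CM, 12.1 to 14.0 FPKM in CM + 4OI) and Fcgr1 (525 to 567 and 353 to 412 FPKM), and 7 rows were not called. The part of these marker changes in the results below was not tested. Fibroblast and matrix markers summed to 78.6 and 48.9 FPKM in replicate 2 of CM and of CM + 4OI, against 11.6 to 14.5 FPKM in the other 4 libraries, and 6 of these 8 markers reached 1 FPKM. Pancreatic acinar markers, also with 6 of 8 above that level, summed to 6.27 to 10.8 FPKM in CM and 7.29 to 12.9 FPKM in CM + 4OI, and 1 of them, Cela1, was called higher (1.60 to 1.71 and 2.02 to 2.55 FPKM). Neutrophil markers summed to 58 to 97.7 and 62.1 to 76.8 FPKM, with Ly6g at 0. The dendritic cell, lymphocyte, erythroid and mast cell lists each summed to at most 2.12 FPKM in any library. In bulk RNA, fewer cells of a type and less RNA per cell cannot be told apart.

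With 4OI, 18 members by symbol rose, 1 fell and 30 were not called, among the 49 with a mean of at least 1 FPKM. Calls were by limma on log2(FPKM + 1), at a Benjamini-Hochberg adjusted p under 0.05 over all 10468 tested genes. The share called higher was 36.7% of the tested members, against 19.3% of all tested genes, and the share called lower was 2.04%, against 13.2%. Well-expressed genes were called more often, and most members are well expressed. With a mean of at least 5 FPKM required, 17 of 44 members (38.6%) were called higher, against 25.1% of all 5871 genes. The share called lower was then 2.27%, against 18.1%. The members that rose included the start codon factors Eif1 and Eif5, the scaffolds Eif4g1, Eif4g2 and Eif3a, and the eIF4E-binding proteins Eif4ebp1 and Eif4ebp2. The member that fell was Eif4e3, a paralog of the cap-binding protein. The changes were small: the median log2 fold change of the 49 was 0.13, against 0.06 over all tested genes, and called members ranged from -0.40 to 0.49. With the libraries rescaled by the median of gene ratios, 13 members were called higher (26.5%, against 12.5% of all genes) and 1 lower. That rescaling lowered the all-gene median by 0.06 on the log2 scale and turned the split of all calls from 2020 higher and 1385 lower to 1309 higher and 1623 lower. It also reduced the number of members with a log2 fold change above 0 from 42 to 31 of 49. When both number 2 libraries, those with high fibroblast markers, were left out, 8 of the 18 kept their call in a fit of 2 against 2 libraries. That was 16.3% of the tested members, against 10.7% of all tested genes, whose calls higher went from 2020 to 1110. The median log2 fold change in that fit was 0.14 for the members and 0.07 for all tested genes. The part of fibroblast RNA in the members' values was otherwise not tested.

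**Figure D1:**
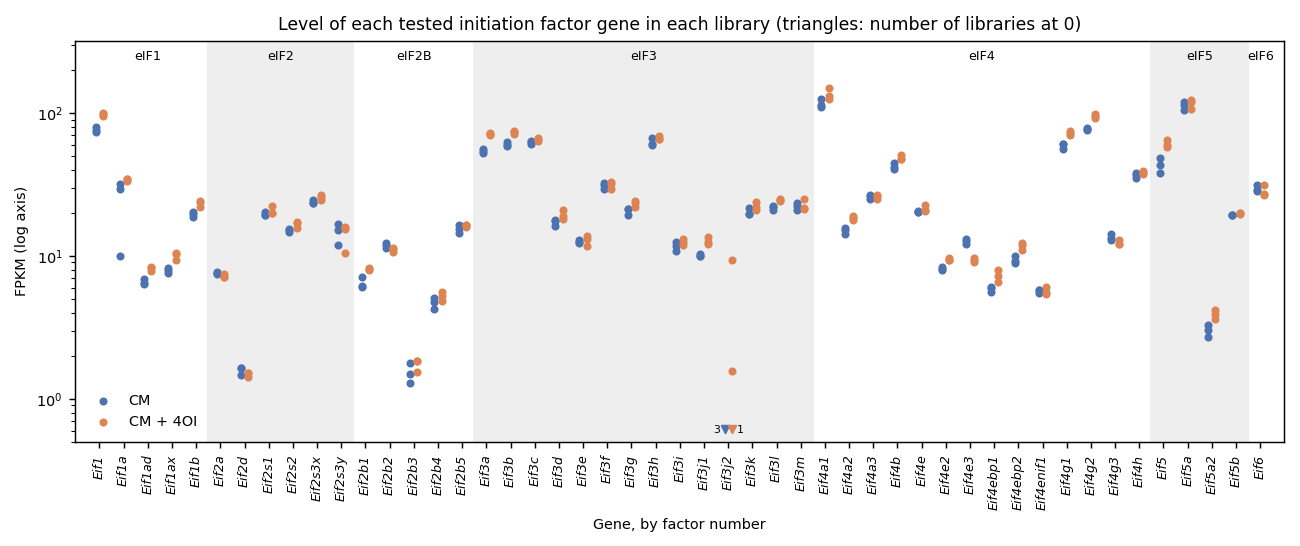
FPKM (log axis) of the 49 tested initiation factor genes in each library, grouped by factor number, with CM in blue and CM + 4OI in orange. Levels run from about 1.3 FPKM (Eif2b3, Eif2d) to above 100 FPKM (Eif4a1, Eif5a), and the triangles give the number of libraries in which Eif3j2 was listed at 0.

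Separation of the groups was more frequent among members than calls were. In 25 members every CM + 4OI library lay above every CM library (31.2% of all tested genes did so), and in 3 members every CM + 4OI library lay below (17.8% of all tested genes). All 18 members called higher were among the 25. The 7 others were Eif1a, Eif2s2, Eif3c, Eif3d, Eif3g, Eif4e and Eif5b, and the 2 separated downward without a call were Eif2a and Eif2b2. Of the 19 called members, 8 were called in all 14 alternative settings: Eif1, Eif1ad, Eif3a, Eif3b, Eif4ebp2, Eif4g1, Eif4g2 and Eif4e3.

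**Figure D2:**
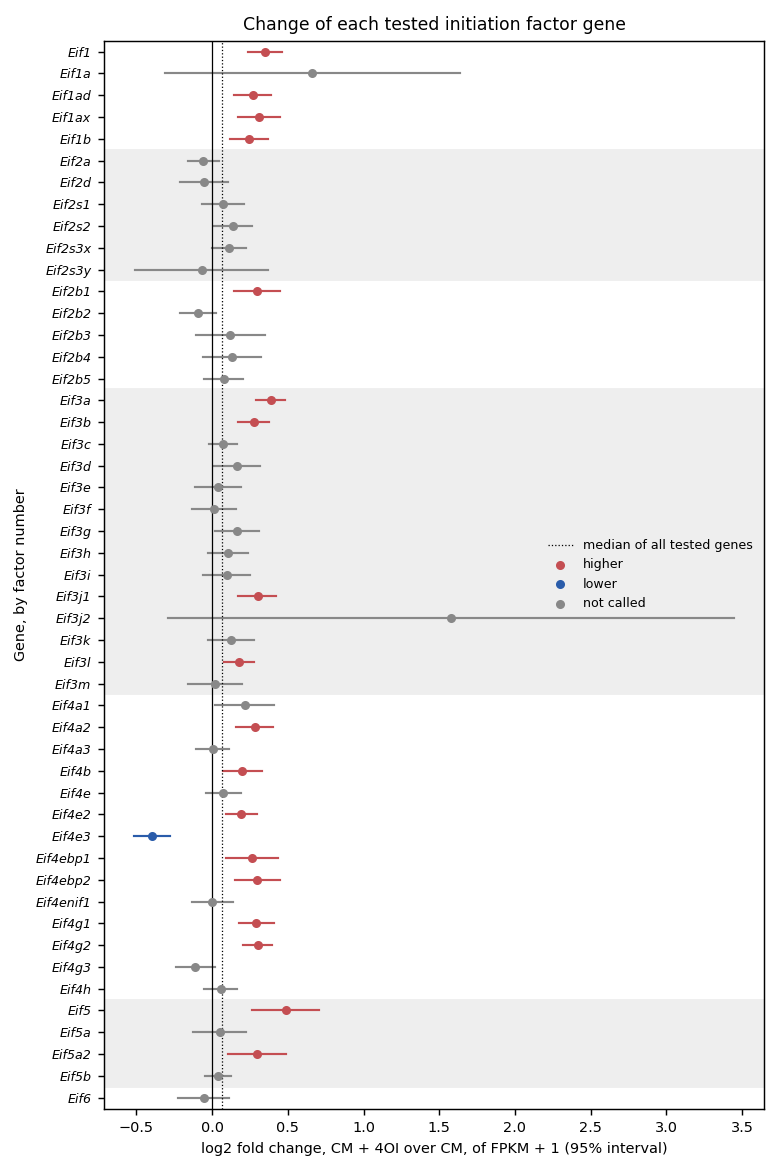
Log2 fold change of FPKM + 1 (CM + 4OI over CM) with its 95% interval for the 49 tested genes, with called genes in red (higher) or blue (lower) and the dotted line at the median of all tested genes, 0.06. Eif1a and Eif3j2 have the widest intervals, and eIF2 subunits lie close to the line.

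The eIF1 group held the largest share of risers, with 4 of 5 members called higher (80%, against 19.3% of all tested genes). It pools genes of eIF1, of eIF1A and Eif1ad by number. The share rests on few genes, some of which lost their call in alternatives given below, and it was not tested. Eif1, the factor that keeps the ribosome from starting at a poor codon, measured 80.3, 75.7 and 73.3 FPKM in CM replicates 1, 2 and 3 and 99.3, 98.6 and 95.2 FPKM in CM + 4OI replicates 1, 2 and 3. Every CM + 4OI library was thus above the highest CM library, and the rise was 27.8% (log2 fold change 0.35, SE 0.05, limma adjusted p = 0.00184). Of its 31-base words, 23.0% also occur in other genes, 14.5% in Emd, which measured 9.90 to 11.1 FPKM in CM and 13.6 to 14.6 FPKM in CM + 4OI, so the split of fragments between them is uncertain. Eif1b, a close paralog, measured 20.2, 19.6 and 18.8 FPKM in CM and 22.0, 24.1 and 23.9 FPKM in CM + 4OI. It rose by 19.6% with no overlap (log2 fold change 0.25, SE 0.05, limma adjusted p = 0.013), but was not called after median-of-ratios rescaling (adjusted p = 0.0583) or when both number 2 libraries were left out (0.0966). Of its exons, 12.7% overlap D830035M03Rik on the opposite strand, which stayed at or below 0.118 FPKM. Eif1 made up 79.9, 79.4 and 79.6% of the summed FPKM of the pair in CM and 81.8, 80.3 and 79.9% in CM + 4OI. The groups are separated here by less than the spread within them.

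Eif1ax, the X-linked gene of eIF1A, which promotes scanning together with eIF1, measured 7.55, 7.95 and 8.26 FPKM in CM and 10.5, 10.3 and 9.41 FPKM in CM + 4OI. No library overlapped between the groups, and the rise was 27.1% (log2 fold change 0.31, SE 0.06, limma adjusted p = 0.00827). Leaving out both number 2 libraries gave an adjusted p of 0.0733. Eif1a, the autosomal gene for the same factor in mouse, measured 9.92, 32.0 and 29.3 FPKM in CM and 34.3, 34.7 and 33.4 FPKM in CM + 4OI. CM replicate 1 was far below the other 5 libraries, and the gene was not called (log2 fold change 0.66, 95% interval -0.31 to 1.64, limma adjusted p = 0.26). Without CM replicate 1 its log2 fold change was 0.15. The share of Eif1a in the pair was 56.8, 80.1 and 78.0% in CM and 76.5, 77.2 and 78.0% in CM + 4OI, so that CM replicate 1 alone stood apart. Eif1ad, which encodes a protein with an eIF1A-like domain, measured 6.36, 6.84 and 6.49 FPKM in CM and 8.19, 7.79 and 8.33 FPKM in CM + 4OI. It rose by 23.4% with separated groups (log2 fold change 0.27, SE 0.05, limma adjusted p = 0.00797). Its exons overlap the opposite-strand gene Banf1 over 15.3%, and Banf1 ranged from 8.90 to 13.3 FPKM in CM and from 8.19 to 13.8 FPKM in CM + 4OI.

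The promoter of Eif1 is shown because it holds the core of the antioxidant response element, TGACNNNGC, the site of NRF2 with its small MAF partners. The 300 bases run from 250 before to 50 after the RefSeq start (GRCm38.p6, chr11:100319699-100319998, plus strand), with the match at -103 to -95 in capitals.
Eif1: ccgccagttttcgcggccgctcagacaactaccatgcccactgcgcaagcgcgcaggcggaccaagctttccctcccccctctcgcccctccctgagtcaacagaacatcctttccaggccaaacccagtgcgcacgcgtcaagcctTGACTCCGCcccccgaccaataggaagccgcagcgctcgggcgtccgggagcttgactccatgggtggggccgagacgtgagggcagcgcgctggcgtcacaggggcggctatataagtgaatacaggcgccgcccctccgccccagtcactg

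No eIF2 subunit gene was called by limma in either direction, and 1 of the 4, Eif2s2, had an unadjusted p under 0.05. Of all tested genes, 19.3% were called higher and 13.2% lower. Eif2s1 encodes the alpha subunit, the target of the eIF2 kinases, and measured 20.2, 19.4 and 19.4 FPKM in CM and 22.5, 19.97 and 19.9 FPKM in CM + 4OI. Only CM + 4OI replicate 1 stood clearly above the CM libraries (log2 fold change 0.07, 95% interval -0.07 to 0.21, limma adjusted p = 0.387). Eif2s2, the beta subunit, measured 15.2, 15.3 and 14.6 FPKM in CM and 17.4, 16.9 and 15.6 FPKM in CM + 4OI. Its groups were separated by a narrow margin and it missed the threshold (log2 fold change 0.14, 95% interval 0.01 to 0.26, limma adjusted p = 0.0962). Of its 31-base words, 11.8% also occur in Gm9892, which measured 8.56 to 9.95 FPKM in CM and 8.83 to 9.79 FPKM in CM + 4OI.

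The gamma subunit, which binds the initiator tRNA, has an X-linked and a Y-linked gene in mouse. Eif2s3x measured 23.5, 24.6 and 23.3 FPKM in CM and 26.7, 26.0 and 24.6 FPKM in CM + 4OI, with the highest CM library slightly above the lowest CM + 4OI library (log2 fold change 0.11, 95% interval -0.00 to 0.22, limma adjusted p = 0.123). Of its 31-base words, 35.6% also occur in other genes, most of them in Gm2223, which measured 7.35 to 7.78 FPKM in CM and 7.94 to 8.02 FPKM in CM + 4OI. Eif2s3y measured 11.8, 15.1 and 16.8 FPKM in CM and 10.5, 15.4 and 15.8 FPKM in CM + 4OI. Replicate 1 was the lowest in both groups, and the interval of the difference was wide (log2 fold change -0.07, 95% interval -0.51 to 0.37, limma adjusted p = 0.802). Eif2s3x held 66.5, 61.98 and 58.1% of the pair in CM and 71.8, 62.8 and 60.8% in CM + 4OI, with the highest share in replicate 1 of each group and a higher share with 4OI within each replicate number. Eif2a and Eif2d, which encode factors that can deliver an initiator tRNA without eIF2 and are no subunits of it, measured 7.10 to 7.68 FPKM and 1.43 to 1.65 FPKM over the 6 libraries and were not called (log2 fold change -0.06 and -0.05).

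Of the 5 genes of eIF2B, the exchange factor that recharges eIF2 with GTP, Eif2b1 alone was called (20%, against 19.3% of all tested genes). Eif2b1 encodes the alpha subunit, through which eIF2B senses phosphorylated eIF2, and measured 6.09, 7.08 and 6.12 FPKM in CM and 8.09, 8.00 and 8.21 FPKM in CM + 4OI. All CM + 4OI libraries were higher than all CM libraries, and the rise was 26.0% (log2 fold change 0.30, SE 0.06, limma adjusted p = 0.0141). Leaving out the third CM + 4OI library ended the call (adjusted p = 0.0505). The beta subunit gene Eif2b2 measured 11.99, 12.3 and 11.4 FPKM in CM and 11.4, 11.2 and 10.6 FPKM in CM + 4OI. These groups were separated by under 0.1 FPKM, on the lower side, without a call (log2 fold change -0.10, 95% interval -0.21 to 0.02, limma adjusted p = 0.191). Eif2b3, the gamma subunit, measured 1.497, 1.30 and 1.77 FPKM in CM and 1.84, 1.84 and 1.53 FPKM in CM + 4OI. Eif2b4, the delta subunit, measured 4.22, 5.12 and 4.74 FPKM in CM and 5.59, 5.25 and 4.81 FPKM in CM + 4OI. Eif2b5, the catalytic epsilon subunit, measured 14.6, 16.4 and 15.4 FPKM in CM and 16.6, 16.5 and 15.96 FPKM in CM + 4OI. The groups overlapped in each of these 3 genes, and their log2 fold changes were 0.12, 0.13 and 0.08 (limma adjusted p from 0.266 to 0.373). Across the complex, levels spanned 1.52 FPKM (Eif2b3) to 15.5 FPKM (Eif2b5) on average in CM, with alpha near 6.43 FPKM.

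eIF3, the largest factor, had 14 genes, of which 4 rose (28.6%, against 19.3% of all tested genes) and 10 were not called. Eif3a, the scaffold on which the complex is built, measured 55.7, 54.6 and 52.3 FPKM in CM and 71.7, 72.03 and 69.7 FPKM in CM + 4OI. The gap between the groups was several times the spread within either, and the rise was 31.3% (log2 fold change 0.39, SE 0.04, limma adjusted p = 0.000692). Eif3b, the subunit that anchors the peripheral module with Eif3g and Eif3i, measured 60.0, 62.4 and 58.3 FPKM in CM and 74.5, 73.4 and 71.0 FPKM in CM + 4OI. It rose by 21.2% without overlap (log2 fold change 0.27, SE 0.04, limma adjusted p = 0.0035). Eif3l, a subunit of the eIF3 octamer, measured 21.9, 22.2 and 20.8 FPKM in CM and 24.9, 24.7 and 24.1 FPKM in CM + 4OI. Its rise of 13.6% was called (log2 fold change 0.18, SE 0.04, limma adjusted p = 0.0198), but not after median-of-ratios rescaling (0.166), nor on leaving out the third CM library (0.0605), the first (0.058) or second (0.0678) CM + 4OI library, or both number 2 libraries (0.091).

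Eif3j1 encodes the loosely held subunit at the mRNA entry side of the ribosome and measured 10.3, 10.04 and 10.04 FPKM in CM and 13.5, 12.6 and 12.03 FPKM in CM + 4OI. The CM libraries lay within 0.3 FPKM of each other and all CM + 4OI libraries were above them, a rise of 25.5% (log2 fold change 0.30, SE 0.05, limma adjusted p = 0.00611). Leaving out both number 2 libraries gave an adjusted p of 0.0579. Eif3j2, a single-transcript gene on another chromosome, was listed at 0 in all CM libraries and at 9.40, 0 and 1.57 FPKM in CM + 4OI. It entered the test only through 2 CM + 4OI libraries, and it was not called (limma adjusted p = 0.169) except without CM + 4OI replicate 2 (0.0339). Of its 31-base words, 93.9% also occur in Eif3j1, so how the fragments of Eif3j2 were assigned is uncertain. The reverse share was lower, 38.1% of the words of Eif3j1 occurring in Eif3j2 and 53.6% in any other gene. Eif3j1 was the whole of the pair in every CM library and in CM + 4OI replicate 2, and 59.0 and 88.4% of it in CM + 4OI replicates 1 and 3. On the opposite strand, 19.0% of the Eif3j1 exons overlap Spg11, a stretch that can already be part of the 53.6%.

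Among the 9 other eIF3 genes, mean levels ran from about 12 FPKM (Eif3i, Eif3e) to above 60 FPKM (Eif3c, Eif3h), and every log2 fold change lay between 0.01 and 0.17. Eif3c, a core subunit that contacts eIF1 and eIF5, measured 60.6 to 63.4 FPKM in CM and 63.5 to 66.7 FPKM in CM + 4OI, a rise of 5.2% that was not called (limma adjusted p = 0.203) except after quantile normalization (0.026). Eif3d, the subunit that can itself bind a cap, measured 16.3 to 17.7 FPKM in CM and 18.2 to 20.9 FPKM in CM + 4OI. Eif3g, an RNA-binding subunit, measured 19.2 to 21.4 FPKM in CM and 21.9 to 24.3 FPKM in CM + 4OI. Eif3k, of the same octamer as Eif3l, measured 19.6 to 21.6 FPKM in CM and 20.96 to 23.9 FPKM in CM + 4OI. These 3 genes were not called (limma adjusted p = 0.0969, 0.0821 and 0.183), but were called higher with replicate fitted as a block (0.0465, 0.0223 and 0.049). Of the Eif3d exons, 43.3% overlap Gm17638 on the opposite strand, which measured at most 0.292 FPKM. The remaining genes, Eif3e, Eif3f, Eif3h, Eif3i and Eif3m, had overlapping groups and limma adjusted p from 0.193 to 0.889.

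The promoter of Eif3a, which had the lowest adjusted p of any member, is shown with 2 motif matches in capitals, the antioxidant response core on the reverse strand at -98 to -90 and the E-box CACGTG, the site of MYC and related factors, at 23 to 28 (RefSeq, GRCm38.p6, chr19:60790644-60790943, minus strand).
Eif3a: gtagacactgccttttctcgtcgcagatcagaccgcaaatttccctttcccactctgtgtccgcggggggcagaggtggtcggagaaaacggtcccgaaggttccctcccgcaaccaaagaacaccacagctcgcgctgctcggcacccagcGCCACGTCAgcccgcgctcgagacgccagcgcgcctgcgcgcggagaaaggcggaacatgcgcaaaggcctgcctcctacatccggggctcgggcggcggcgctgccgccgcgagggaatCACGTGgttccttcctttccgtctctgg

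In the eIF4 group, 7 of 14 tested genes rose (50%, against 19.3% of all tested genes), 1 fell (7.14%, against 13.2%) and 6 were not called. Of the cap-binding genes, Eif4e2 rose while Eif4e3 fell. Eif4e, the cap-binding factor itself, measured 20.6, 20.2 and 20.3 FPKM in CM and 22.8, 20.7 and 20.9 FPKM in CM + 4OI. The CM + 4OI libraries were all above the CM libraries, 2 of them by under 1 FPKM, and the gene was not called (log2 fold change 0.07, 95% interval -0.04 to 0.19, limma adjusted p = 0.293). Of its 31-base words, 7.43% also occur in Gm7327, which measured 4.41 to 4.86 FPKM in CM and 5.71 to 6.34 FPKM in CM + 4OI. Eif4e2, a cap-binding paralog known for silencing mRNAs, measured 8.31, 7.94 and 8.10 FPKM in CM and 9.63, 9.31 and 9.32 FPKM in CM + 4OI. It rose by 16.02% with separated groups (log2 fold change 0.19, SE 0.04, limma adjusted p = 0.0151), but was not called after median-of-ratios rescaling (0.165), after quantile normalization (0.0668) or when both number 2 libraries were left out (0.103). Eif4e3, a paralog that binds the cap in an atypical way, measured 13.2, 12.7 and 12.2 FPKM in CM and 9.72, 9.30 and 9.10 FPKM in CM + 4OI. It fell by 26.0%, every CM + 4OI library being below every CM library (log2 fold change -0.40, SE 0.05, limma adjusted p = 0.00146), and its adjusted p stayed between 0.000963 and 0.0273 in the 14 alternatives. Of its exons, 14.8% overlap Gm20696 on the same strand, which measured at most 0.529 FPKM.

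The shares of the 3 cap-binding genes differed between the groups, although the level of Eif4e itself was not called. Shares of 1 sum depend on each other, so the fall of Eif4e3 by itself raises the shares of the others. Eif4e held 48.9, 49.4 and 50.01% of their summed FPKM in CM and 54.0, 52.7 and 53.2% in CM + 4OI. Eif4e2 held 19.8, 19.5 and 20% in CM and 22.9, 23.7 and 23.7% in CM + 4OI. Eif4e3 held 31.3, 31.1 and 30.0% in CM and 23.1, 23.7 and 23.1% in CM + 4OI. In CM, Eif4e3 was the second most abundant of the 3, and in CM + 4OI its share lay within 1 percentage point of that of Eif4e2. All 3 shares separated the groups, with p = 0.1 by an exact two-sided permutation test over the 6 libraries, the smallest p that 3 against 3 can give (0.21 after Benjamini-Hochberg adjustment over the 21 shares of 9 paralog groups).

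**Figure D3:**
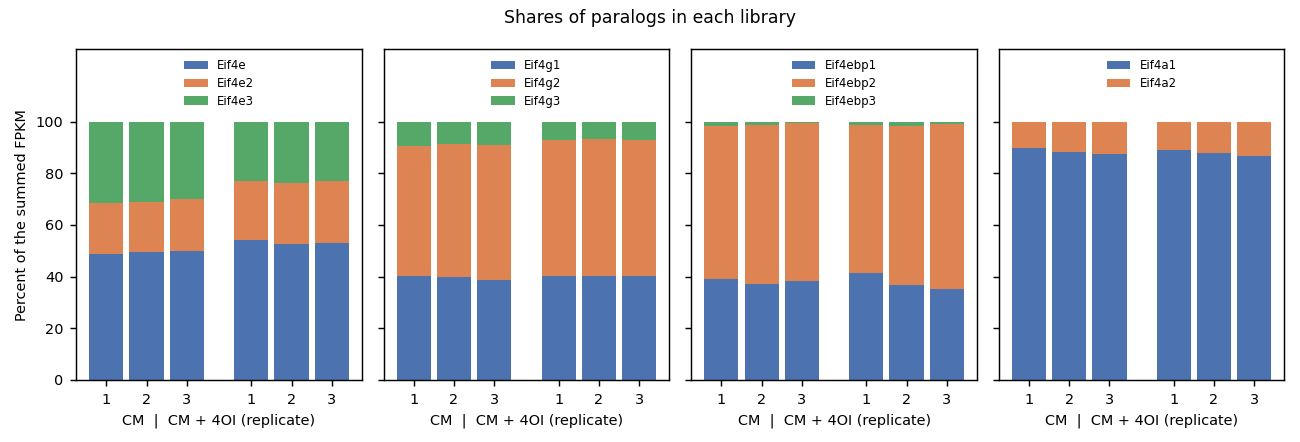
Percent of the summed FPKM held by each paralog in each library, for the cap-binding genes, the eIF4G scaffolds, the eIF4E-binding proteins and the eIF4A helicases, with CM replicates 1 to 3 on the left of each panel and CM + 4OI replicates 1 to 3 on the right. The share of Eif4e3 falls from a mean of 30.8% to 23.3% and that of Eif4g3 from 9.02% to 6.90%, while the shares in the other panels overlap between the groups.

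The genes of the eIF4E-binding proteins, which withhold eIF4E until mTOR phosphorylates them, were called higher with 4OI where they were tested. Eif4ebp1 measured 6.05, 6.00 and 5.59 FPKM in CM and 7.93, 7.27 and 6.60 FPKM in CM + 4OI. Its groups were separated and the rise was 23.5% (log2 fold change 0.26, SE 0.07, limma adjusted p = 0.0321). This call was lost in 9 of the 14 alternatives: with no filter on low values (0.0776), after median-of-ratios rescaling (0.107), after quantile normalization (0.0537), and on leaving out the first (0.0625), second (0.0619) or the third (0.0968) CM library, the first (0.0774) or second (0.0889) CM + 4OI library, or both number 2 libraries (0.135). Eif4ebp2 measured 9.22, 10.03 and 8.91 FPKM in CM and 11.1, 12.2 and 11.97 FPKM in CM + 4OI. It rose by 25.3% with separated groups (log2 fold change 0.30, SE 0.06, limma adjusted p = 0.0118), and its call was kept in all 14 alternatives. Eif4ebp3 was listed at 0.248, 0.177 and 0.0861 FPKM in CM and 0.224, 0.3003 and 0.159 FPKM in CM + 4OI, and was not tested. Of its exons, 67.3% overlap AC115631.1 on the same strand, which measured 4.69 to 9.78 FPKM over the 6 libraries. How the fragments of Eif4ebp3 were assigned is thus uncertain, and so is its part in the shares of the 3 genes. Eif4ebp1 held 39.0, 37.0 and 38.3% of the 3 genes in CM and 41.3, 36.7 and 35.2% in CM + 4OI, so the groups overlapped (exact two-sided permutation p = 0.9). Eif4enif1, the 4E-T protein that carries eIF4E into the nucleus, measured 5.41 to 6.08 FPKM over the 6 libraries with overlapping groups (log2 fold change 0.00, 95% interval -0.13 to 0.14, limma adjusted p = 0.984).

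Among the scaffolds, Eif4g1 is the main eIF4G, Eif4g3 its paralog, and Eif4g2 (also called DAP5) lacks the part that binds eIF4E. Eif4g1 measured 61.0, 60.4 and 56.1 FPKM in CM and 74.7, 72.8 and 70.2 FPKM in CM + 4OI, and Eif4g2 measured 76.6, 78.4 and 76.3 FPKM in CM and 98.0, 95.6 and 92.1 FPKM in CM + 4OI. Neither gene showed any overlap. Eif4g1 rose by 22.7% (log2 fold change 0.29, SE 0.05, limma adjusted p = 0.0049) and Eif4g2 by 23.5% (log2 fold change 0.30, SE 0.04, limma adjusted p = 0.00176). Eif4g3 measured 12.9 to 14.2 FPKM in CM and 12.1 to 13.0 FPKM in CM + 4OI and was not called (log2 fold change -0.11, limma adjusted p = 0.164). The share of Eif4g3 among the 3 scaffolds was 9.37, 8.81 and 8.87% in CM and 7.01, 6.73 and 6.94% in CM + 4OI. This share was lower in every CM + 4OI library (exact two-sided permutation p = 0.1, the smallest possible). Eif4g1 held 40.2, 39.7 and 38.6% in CM and 40.2, 40.3 and 40.3% in CM + 4OI, and Eif4g2 held 50.5, 51.5 and 52.5% in CM and 52.8, 53.0 and 52.8% in CM + 4OI.

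The promoter of Eif4g1 is shown because it holds 2 E-boxes, at -54 to -49 and at 16 to 21, and a terminal oligopyrimidine start at 2 to 7, all in capitals (RefSeq, GRCm38.p6, chr16:20672477-20672776, plus strand).
Eif4g1: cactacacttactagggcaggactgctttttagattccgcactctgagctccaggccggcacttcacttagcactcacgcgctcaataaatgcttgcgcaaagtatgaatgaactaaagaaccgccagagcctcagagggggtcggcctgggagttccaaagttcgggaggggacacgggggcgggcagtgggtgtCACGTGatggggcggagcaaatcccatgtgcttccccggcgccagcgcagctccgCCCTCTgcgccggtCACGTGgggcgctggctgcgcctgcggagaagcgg

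Eif4a1, the main helicase of initiation, was the most abundant member, at 125.5, 113.2 and 110.3 FPKM in CM and 149, 132 and 125 FPKM in CM + 4OI. The highest CM library was just above the lowest CM + 4OI library, while within each replicate number CM + 4OI was higher. The rise of 16.4% was not called in the unpaired fit (log2 fold change 0.22, SE 0.08, limma adjusted p = 0.0865), but was called when replicate was fitted as a block (0.00602) or after quantile normalization (0.0308). Eif4a2, its paralog, measured 14.1, 15.2 and 15.8 FPKM in CM and 18.5, 17.97 and 18.96 FPKM in CM + 4OI. It rose by 22.7% without overlap (log2 fold change 0.28, SE 0.05, limma adjusted p = 0.00791), with an adjusted p of 0.0506 when both number 2 libraries were left out. Eif4a1 held 89.9, 88.2 and 87.5% of the pair in CM and 89.0, 88.0 and 86.8% in CM + 4OI. The groups overlapped (exact two-sided permutation p = 0.6, regardless of replicate number), while within each of the 3 replicate numbers the share of Eif4a1 was lower with 4OI. Eif4a3, the helicase of the exon junction complex, measured 25.1 to 26.8 FPKM in both groups (log2 fold change 0.00, 95% interval -0.11 to 0.11, limma adjusted p = 0.967).

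Part of Eif4a1 is shared with its processed pseudogene Eif4a-ps4, which the rule leaves out and which was examined after its values were seen. Eif4a-ps4 was listed at 114.6, 113.9 and 107.9 FPKM in CM and at 134, 123 and 125 FPKM in CM + 4OI, close to Eif4a1 itself, and was called higher (log2 fold change 0.18, SE 0.05, limma adjusted p = 0.0294), although in 6 of 14 alternatives only. Of its 31-base words, 97.4% also occur in Eif4a1, while 25.6% of the words of Eif4a1 occur in Eif4a-ps4 and 31.1% in any other gene, so how the fragments of the pseudogene were assigned is uncertain. Its 1218 bases align with the 1221 coding bases of Eif4a1 with 1217 identical bases and a single substitution, G534A, counted from the first coding base of Eif4a1 with the base of Eif4a1 first. The windows of 120 bases around that position, coding bases 474 to 593 in the GENCODE transcripts, are shown because the base in capitals is the only difference by which a fragment from the shared stretch could be assigned.
Eif4a1: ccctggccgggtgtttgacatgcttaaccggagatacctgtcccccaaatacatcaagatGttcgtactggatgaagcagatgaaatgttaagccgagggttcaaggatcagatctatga
Eif4a-ps4: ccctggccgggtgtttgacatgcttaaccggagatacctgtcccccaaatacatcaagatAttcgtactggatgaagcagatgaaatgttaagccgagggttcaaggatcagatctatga

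The helicase cofactors differed in their calls. Eif4b measured 40.4, 44.9 and 42.0 FPKM in CM and 47.9, 51.2 and 47.5 FPKM in CM + 4OI. Its rise of 15.2% separated the groups and was called (log2 fold change 0.20, SE 0.05, limma adjusted p = 0.0321). The call was lost in 8 of the 14 alternatives: with no filter on low values (0.0689), after median-of-ratios rescaling (0.0758), and on leaving out the first (0.0864) or the third (0.0907) CM library, the first (0.0612), second (0.101) or the third (0.0612) CM + 4OI library, or both number 2 libraries (0.0606). Eif4h measured 35.02 to 38.0 FPKM in CM and 37.2 to 39.0 FPKM in CM + 4OI and was not called (log2 fold change 0.06, limma adjusted p = 0.387). Eif4e1b, the oocyte paralog of Eif4e, was listed at 0 in all 6 libraries.

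Eif5, which stimulates GTP hydrolysis by eIF2 at the start codon, had the largest log2 fold change among the called members. It measured 48.6, 43.5 and 38.2 FPKM in CM and 58.1, 60.1 and 65.1 FPKM in CM + 4OI. The libraries of each group spread more than for most other members, yet the lowest CM + 4OI library was above the highest CM library, and the rise was 40.6% (log2 fold change 0.49, SE 0.09, limma adjusted p = 0.00837). Leaving out both number 2 libraries gave an adjusted p of 0.062. Eif5b, the GTPase that joins the subunits, measured 19.2 to 19.5 FPKM in CM and 19.7 to 19.9 FPKM in CM + 4OI. Its groups were separated by under 1 FPKM, with no call (log2 fold change 0.04, 95% interval -0.05 to 0.12, limma adjusted p = 0.438).

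The eIF5A genes encode a factor that now counts chiefly as an elongation and termination factor and that carries hypusine, a modification made from spermidine. Eif5a measured 104 to 119.8 FPKM in CM and 107 to 122 FPKM in CM + 4OI with overlapping groups (log2 fold change 0.05, limma adjusted p = 0.647). Eif5a2 measured 2.70, 3.30 and 3.02 FPKM in CM and 3.61, 4.22 and 3.91 FPKM in CM + 4OI. It rose by 30.2% with separated groups (log2 fold change 0.30, SE 0.08, limma adjusted p = 0.0311). That call was lost with no filter on low values (0.0824) and on leaving out the first (0.0795) or the third (0.0781) CM library, the second (0.0987) or the third (0.0846) CM + 4OI library, or both number 2 libraries (0.0725). Eif5a2 held 2.20, 2.82 and 2.82% of the pair in CM and 2.87, 3.78 and 3.15% in CM + 4OI. Eif6, which keeps the large subunit from joining too early, measured 28.6 to 31.2 FPKM in CM and 26.8 to 31.2 FPKM in CM + 4OI and was not called (log2 fold change -0.06, limma adjusted p = 0.582).

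**Figure D4:**
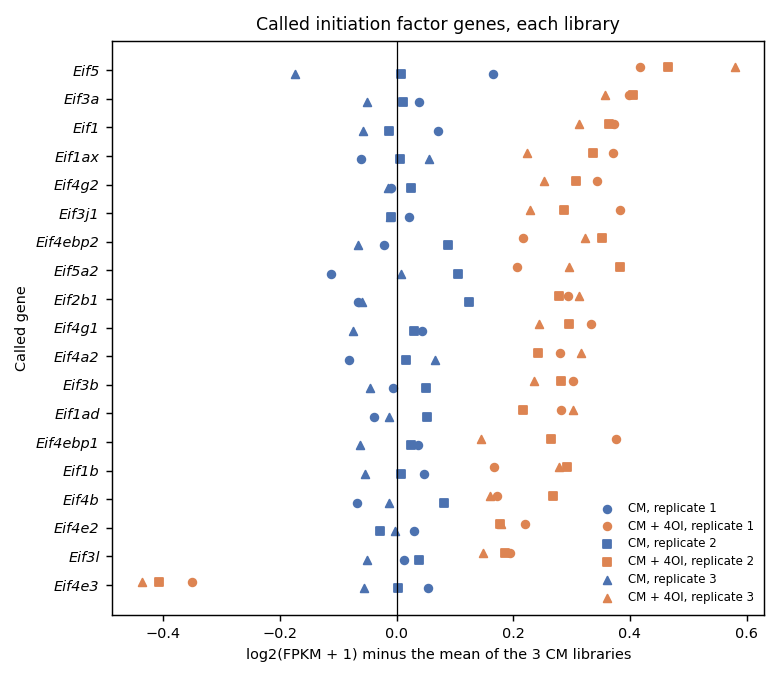
For each of the 19 called genes, log2(FPKM + 1) of every library relative to the mean of the 3 CM libraries, with CM in blue, CM + 4OI in orange and marker shapes for the replicate number. In every row the 3 orange points lie on 1 side of the 3 blue points, from -0.40 on average for Eif4e3 to 0.49 for Eif5.

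Promoter sequences were in the RefSeq table for 40 of the 52 members. The promoter of Eif5 is shown because that gene had the largest log2 fold change among the called members, and it holds none of the 4 motifs searched (GRCm38.p6, chr12:111537851-111538150, plus strand).
Eif5: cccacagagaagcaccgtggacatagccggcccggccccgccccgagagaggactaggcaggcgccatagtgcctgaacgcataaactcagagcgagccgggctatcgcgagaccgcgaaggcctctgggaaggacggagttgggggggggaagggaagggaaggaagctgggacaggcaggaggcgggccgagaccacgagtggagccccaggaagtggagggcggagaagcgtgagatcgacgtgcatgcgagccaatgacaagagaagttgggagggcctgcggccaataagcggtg
The E-box CACGTG, searched on both strands, was present in 10 of the 40 (25.0%), namely Eif1b, Eif3a, Eif3f, Eif3k, Eif4a1, Eif4e, Eif4g1, Eif4h, Eif5a and Eif5a2, and in 8.09% of the promoters of 27025 genes. It was found in 4 of 16 promoters of members called higher and in 6 of 23 of the other tested members. The antioxidant response core TGACNNNGC, searched on both strands, was present in 8 of 40 (20%, against 14.0% of all genes), in 4 of 16 and 4 of 23 of these classes. The amino acid response element of ATF4, TGATGNAA, on both strands, was present in Eif2s3x only (2.50%, against 4.51%). A terminal oligopyrimidine start, a C followed by at least 4 pyrimidines within 10 bases of the annotated start on the plus strand, was present in 14 of 40 (35%, against 34.4%). Within 100 bases of the start, 8 members held the E-box and 5 the antioxidant core, against 5.00% and 8.26% of all genes. A match is a letter match and not a measured binding site. The longest annotated transcript had a median of 3664 nt among the 18 members that rose and 2796 nt among the 30 not called.

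Genes that act on the factors were counted in the same fit, and each count stands against the 19.3% of all tested genes called higher and the 13.2% called lower. Of 9 tested eIF2 kinases and phosphatase regulators, 4 rose (44.4%), 2 fell (22.2%) and 3 were not called, with 1 to 5 higher over the alternatives. The count of 1 came from the filter at a mean of 5 FPKM, which left Eif2ak3, Eif2ak4 and Gcn1l1 untested. Eif2ak3 (PERK, the kinase of the endoplasmic reticulum) rose from 3.18 ± 0.21 to 5.17 ± 0.61 FPKM (SD, n = 3 each; limma adjusted p = 0.00357). Eif2ak4 (GCN2, the amino acid sensor) rose from 3.39 ± 0.10 to 5.06 ± 0.06 FPKM (limma adjusted p = 0.000651). Impact, an inhibitor of GCN2 activation, rose from 9.90 ± 0.67 to 20.03 ± 1.8 FPKM (limma adjusted p = 0.000256). Ppp1r15b, which recruits the phosphatase that restores eIF2, fell from 34.6 ± 0.34 to 28.6 ± 0.46 FPKM (limma adjusted p = 0.00193), and Eif2ak2 (PKR, the kinase of double-stranded RNA, named after its values were seen) fell from 98.2 ± 2.8 to 82.4 ± 0.69 FPKM (limma adjusted p = 0.00318). Gcn1l1 was the other gene called higher (limma adjusted p = 0.027), in 3 of 13 alternatives only. Of the factor genes these regulators act on, no eIF2 subunit gene was called, and 1 of 5 eIF2B genes was. With so few genes, those counts cannot be told apart from the 19.3% and 13.2% of all tested genes called higher and lower.

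The kinases that phosphorylate eIF4E on the eIF4G scaffold moved in opposite directions. Mknk1 fell from 12.4 ± 0.21 to 8.86 ± 0.67 FPKM (limma adjusted p = 0.00189) and Mknk2 rose from 21.7 ± 1.7 to 28.0 ± 0.91 FPKM (limma adjusted p = 0.00726, and 0.0714 when both number 2 libraries were left out). In their list of 17 mTOR and MNK signalling genes, 3 rose (17.6%, against 19.3% of all genes), 2 fell (11.8%, against 13.2%) and 12 were not called, shares close to the background, with 0 to 3 higher and 1 to 2 lower over the alternatives. Rheb and Rps6ka1 were the other genes called higher (log2 fold change 0.26 and 0.24), neither called after median-of-ratios rescaling (limma adjusted p = 0.0595 and 0.0643) or when both number 2 libraries were left out (0.0849 and 0.0532). Of 23 accessory initiation proteins, 8 rose (34.8%, against 19.3%), 2 fell (8.70%, against 13.2%) and 13 were not called. The 8 and the 34.8% include Pdcd4, whose call is no independent evidence for the reason given below. In that list 4 rose after median-of-ratios rescaling or with both number 2 libraries left out, and 5 without the second CM + 4OI library. Bzw1, a mimic of the eIF5 carboxyl-terminal domain, rose from 76.8 ± 1.5 to 101.1 ± 3.4 FPKM (limma adjusted p = 0.000722), and the RNA helicase gene Dhx33 rose from 2.18 ± 0.19 to 3.20 ± 0.14 FPKM (limma adjusted p = 0.00543). Pdcd4, an inhibitor of eIF4A, measured 0.761 ± 0.22 and 1.46 ± 0.19 FPKM. It passed the minimum of 1 FPKM on average only through the CM + 4OI group, so its call (limma adjusted p = 0.023) is no independent evidence, and it was not called with no filter on low values (0.0727) nor on leaving out the first (0.0702) or second (0.0762) CM + 4OI library or both number 2 libraries (0.0742). Cyfip1, a binding partner of eIF4E, fell from 39.3 ± 2.4 to 26.6 ± 1.6 FPKM (limma adjusted p = 0.00109).

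Of 9 tested genes of eIF5A hypusination and polyamine synthesis, 3 rose (33.3%, against 19.3% of all genes) and 6 were not called, including Dhps and Dohh, the enzymes that make hypusine. Dhps measured 7.06 to 7.72 FPKM in CM and 6.34 to 6.76 FPKM in CM + 4OI (limma adjusted p = 0.0936) and was called lower after median-of-ratios rescaling (0.0221) and quantile normalization (0.0247). Leaving out the second CM library gave 5 genes higher in that list. Odc1, the first enzyme of polyamine synthesis, rose from 31.7 ± 3.0 to 67.4 ± 2.6 FPKM (limma adjusted p = 0.000129), and Amd1, which supplies the aminopropyl donor, from 8.08 ± 1.1 to 15.1 ± 0.52 FPKM (limma adjusted p = 0.00075). Srm, spermidine synthase, measured 9.46 ± 1.4 and 13.0 ± 1.5 FPKM and was called (limma adjusted p = 0.0329), but not after median-of-ratios rescaling (0.0574), with no filter on low values (0.0915) or on leaving out the first (0.0851) or the third (0.0843) CM library or the first (0.0887) or second (0.0786) CM + 4OI library. Of 12 elongation factor genes 3 rose (25%, against 19.3%) and 9 were not called, with 6 higher when replicate was fitted as a block and 1 after median-of-ratios rescaling, without the third CM library, without the second CM + 4OI library or with both number 2 libraries left out, the largest change being that of Eef1e1 (log2 fold change 0.45, limma adjusted p = 0.00347). The other 2, Eef1g (0.19, 0.0184) and Eef2 (0.15, 0.0382), were not called after median-of-ratios rescaling (0.129 and 0.232) or when single libraries were left out, Eef1g losing its call without CM library 3 (0.0508) or CM + 4OI library 1 (0.0512) or 2 (0.0677), and Eef2 keeping it only without CM library 2 (0.0343). Of 8 termination and recycling genes 2 rose (25%, against 19.3%), Pelo and the ribosome splitting ATPase Abce1 (log2 fold change 0.49 and 0.37, limma adjusted p = 0.00172 and 0.00389). Of 20 aminoacyl-tRNA synthetase genes 5 rose (25%, against 19.3%), 2 fell (10%, against 13.2%) and 13 were not called, and 3 rose after median-of-ratios rescaling, without the third CM library or with both number 2 libraries left out. Those called included Eprs and Iars higher (log2 fold change 0.55 and 0.44) and Wars lower (-0.38; limma adjusted p = 0.00183, 0.00687 and 0.00327). Nars rose as well (log2 fold change 0.33, limma adjusted p = 0.00899).

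**Figure D5:**
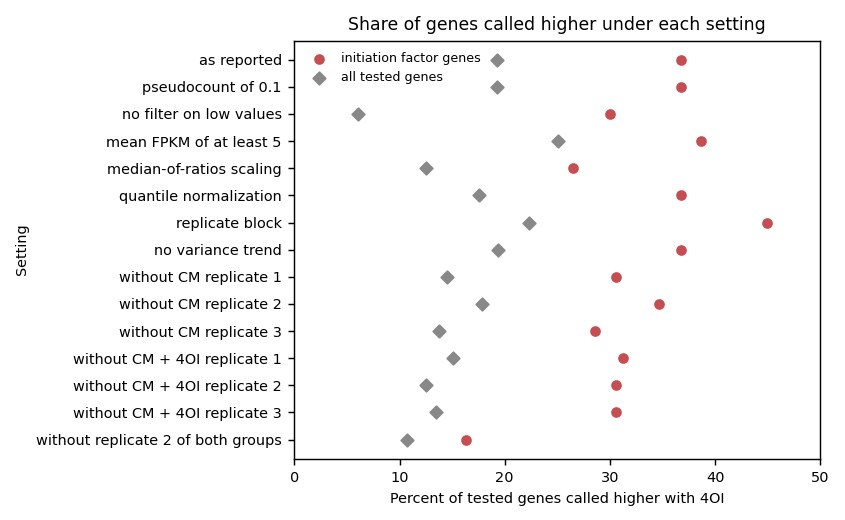
Percent of tested genes called higher with 4OI under the reported fit and 14 alternative settings, for initiation factor genes (circles) and all tested genes (diamonds). The members range from 16.3 to 44.9% over the alternatives and all genes from 6.08 to 25.1%, and in every setting the circle lies to the right of the diamond.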

How the data were processed

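RNA of 6 cultures (CM and CM + 4OI, 3 each) was read as paired ends on an Illumina instrument, per the labels' protocols. The authors deposited FPKM, 1 column for each library. FastQC 0.11.2 and build mm10 are named in the submitters' processing notes; aligner, quantifier, annotation and strandedness: not given in the sources used here. Without a strand setting, fragments of genes overlapping on opposite strands cannot be told apart. Coordinates and transcripts are from GENCODE M21 (GRCm38, the assembly mm10), in which 55154 gene IDs (99.7%) occur. Depth was inferred from the smallest step in which FPKM times length recurred among single-transcript genes of at least 500 nt; 1 FPKM of a 2000 nt transcript stands for 36.0 to 50.6 fragments. Counts were not recovered.

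CM + 4OI was compared with CM by limma 3.58.1 (R 4.3.3) with log2(FPKM + 1) as the response, a trended variance and no covariate, over 10468 genes with a mean of at least 1 FPKM. Tests were two-sided and Benjamini-Hochberg adjusted over all of them, at 0.05. The log2(FPKM + 1) scale understates changes of low genes. The fit was also run on simulated data with independent noise in each library. That simulation lacks the correlation between same-numbered libraries described below, and no result here rests on it. Shares of paralogs were compared by exact two-sided permutation over libraries (scipy 1.17.1). Shared 31-base words of transcripts measured the similarity of copies. Python 3.11.15, pandas 2.3.3, numpy 2.4.6 and matplotlib 3.10.9 were used. Promoters were matched by symbol to RefSeq (GRCm38.p6), with entries for 40 of 52 members.

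The groups share replicate numbers. Over tested genes, deviations from the group means correlated between same-numbered libraries (r = 0.344, 0.427 and 0.185; at most 0.0262 between other numbers), so the numbers were taken to pair the libraries and a fit with the number as a block was run. The other alternatives were a pseudocount of 0.1, no filter, a mean of at least 5 FPKM, median-of-ratios scaling, quantile normalization, no variance trend, and leaving out each library or replicate 2 of both groups.

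The members and lists were chosen with earlier results of these data known. Values in every library are given for each called member, for those whose call changed in most alternatives, and for eIF2, eIF2B, Eif4e and its binding proteins. From each of 7 related lists up to 4 called genes with the largest change are named. Eif1a, Eif3j2, Eif4a1 and Eif4a-ps4 were shown in full after their values were seen.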

Additional observations from a re-analysis of the deposited data

How the results depend on the processing

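Counts of members called higher were 14 to 17 without 1 library, 8 without replicate 2 of both groups, and 13 to 22 under the other alternatives, and 1 member, Eif4e3, was called lower in all 14. All genes called higher numbered 1302 to 1868 without 1 library, 1309 after median-of-ratios scaling and 1110 without replicate 2 of both groups. With the replicate block, 22 members were called higher, the 18 of the unpaired fit and Eif3d, Eif3g, Eif3k and Eif4a1, and no other member's call changed; over all genes 2336 were higher and 1523 lower.

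Of the fixed gene lists, elongation factors had 6 genes higher with the replicate block and mTOR and MNK signalling 1 lower with the block or with no filter. After median-of-ratios scaling, elongation factors had 1 higher and 1 lower, accessory proteins 4 higher, mTOR and MNK signalling 1 higher, aminoacyl-tRNA synthesis 3 higher and hypusination 1 lower, as it also had after quantile normalization. The eIF2 kinase list had 1 higher at a mean of at least 5 FPKM, a filter that left Eif2ak3, Eif2ak4 and Gcn1l1 untested. Eif2ak3 and Eif2ak4 were called higher in all 13 alternatives in which they were tested. Without replicate 2 of both groups the counts were 1 higher for elongation, 4 higher for accessory proteins, 0 higher and 1 lower for mTOR and MNK signalling, and 3 higher and 1 lower for aminoacyl-tRNA synthesis. Without 1 library they were 1 to 4 higher for elongation, 5 to 9 for accessory proteins, 2 to 5 for hypusination and 3 to 6 for aminoacyl-tRNA synthesis, and 1 to 2 lower for mTOR and MNK signalling and for aminoacyl-tRNA synthesis.

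Log2 fold changes that turned sign belonged to members not called. After median-of-ratios scaling they were -0.002 for Eif2s1, -0.004 for Eif3c, -0.033 for Eif3e, -0.062 for Eif3f, -0.054 for Eif3m, -0.071 for Eif4a3, -0.001 for Eif4e, -0.064 for Eif4enif1, -0.020 for Eif4h, -0.027 for Eif5a and -0.034 for Eif5b; the scaling itself lowered the all-gene median by 0.06. Eif4enif1 was at -0.036 after quantile normalization. Without replicate 2 of both groups Eif3f was at -0.014 and Eif4enif1 at -0.059. Without 1 library, Eif2s3y ranged from -0.203 to 0.107, Eif3e from -0.003 to 0.099, Eif3f from -0.026 to 0.058, Eif3m from -0.050 to 0.059, Eif4a3 from -0.023 to 0.029, Eif4enif1 from -0.039 to 0.033 and Eif5a from -0.005 to 0.108. Beyond the scaling's own construction and the smaller number of libraries, the cause was not tested.

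FPKM carry no counts, so the sampling error of low genes such as Eif2b3, Eif2d and Eif4ebp3 is not separated from the spread between cultures. Values of genes with near-identical copies (Eif3j2, Eif4a-ps4 and, in part, Eif3j1, Eif4a1 and Eif2s3x) depend on how fragments were assigned. Those of Eif4e, Eif2s2 and Eif4a2 can depend on it too, as 8.75, 12.4 and 19.6% of their 31-base words also occur in other genes. Further members share such words, among them Eif4ebp3 (66.4%), Eif3d (40.2%), Eif4a3 (31.2%), Eif3h (29.4%), Eif3m (28.7%), Eif1 (23.0%) and Eif5b (16.1%).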

Other observations

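The pseudogenes left out by symbol, other than Eif4a-ps4, stayed below 1 FPKM in every library. Eif1-ps1 reached 0.95 FPKM, Eif5al3-ps 0.411 FPKM, Eif3s6-ps1 0.224 FPKM and Eif3s6-ps2 0.288 FPKM at most, and Eif1-ps3 and Eif3s6-ps4 were listed at 0. Eif2ak1, the haem-regulated eIF2 kinase, measured 10.4, 11.1 and 11.1 FPKM in CM and 11.5, 12.3 and 11.9 FPKM in CM + 4OI. Its groups were separated, and it was the eIF2 kinase gene of 4 that was not called (log2 fold change 0.12, limma adjusted p = 0.111).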
